A study of Mus musculus with 8 samples.

Results

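The miR-297, miR-466, miR-467 and miR-669 families were followed across 8 small-RNA libraries of NIH-3T3, a fibroblast line that was immortalised from mouse embryos. Hairpins were chosen by symbol (every mouse hairpin whose symbol begins Mir297, Mir466, Mir467 or Mir669). Read counts in these libraries then placed the arms and chose the named products, and the families themselves were picked with results of these data known, so their levels are given as a description. This gave 81 of the 1174 annotated hairpins, with 63 distinct hairpin sequences. Mature sequences that could not be told apart over their first 20 bases were pooled, which left 51 family sequences with reads among 445 counted miRNA sequences. A pooled name lists the letters that share a sequence, so that miR-467a/b-5p stands for the 5p product common to the Mir467a and Mir467b hairpins.

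The libraries came from 2 ways of stopping the cell cycle. For the serum series, cells kept in medium with 10% serum were deprived of it for 48 h and then received 20% serum. They were collected at 0 h (labelled G0) and after 12 h (G1), 16 h (S), 20 h (G2/M) and 24 h (G1). For the contact series, cells seeded at 12% confluency were collected at day 0 (asynchronous) and at day 3 and day 5 of arrest by contact inhibition (both labelled G0). Every library is wild-type NIH-3T3 cells of 1 line with no other agent, and each condition is 1 library, so a difference between conditions has no replicate check. In libraries from whole cultures, fewer cells that hold a miRNA and less of it per cell cannot be told apart.

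A miRNA hairpin is cut by Drosha and Dicer into a short duplex, of which the strand from either arm (5p or 3p) can be loaded into Argonaute. Bases 2 to 8 of the loaded strand, the seed, do most of the target recognition, so that a shift of the 5′ end by 1 base changes the set of targets. The families studied here arose in rodents by repeated duplication within an intron of Sfmbt2, an imprinted gene for a Polycomb-group protein that is expressed mainly from the paternal allele, and the cluster is best known from placenta and embryonic stem cells. Its 5p arms are rich in U and G, its 3p arms in A and C, and many members resemble simple repeats.

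The RefSeq table of mature miRNAs (build GRCm38.p6) held 9 of the 81 symbols, with 8 mature sequences. The sequences below are shown because they contrast the U and G rich 5p type with the A and C rich 3p type. They include the 1 family sequence among them whose first 20 bases, shared with other hairpins, were well counted. The seed (bases 2 to 8) is in capitals and the rest in lower case.
miR-466i-3p: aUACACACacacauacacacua
miR-467g: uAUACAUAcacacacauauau
miR-466k: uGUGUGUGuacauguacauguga
miR-467h: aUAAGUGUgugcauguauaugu
miR-669n: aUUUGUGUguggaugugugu
miR-574-5p: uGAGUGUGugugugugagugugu
miR-466i-3p lies at chr13:17747552-17747573 (+), in no other gene on its strand, and its first 20 bases had 260 reads. Those bases are shared with Mir466f hairpins of the Sfmbt2 intron. Whole inserts matching the 3p arm perfectly, at any start, had 23 reads for Mir466i, 148 for Mir466f-2 and 59 for Mir466f-3. That stretch of CA repeats is also found in 17 genes that are not annotated as miRNAs and in 3 predicted miRNA genes, so its reads cannot be given to the families with certainty. miR-466k (chr3:85467396-85467418, +) had 5 reads, and miR-467g (chr5:34732872-34732892, -), miR-467h (chr9:115381898-115381919, +) and miR-669n (chr3:115979905-115979924, +) had 0. In the sequences printed, G and U make up 13.6% of miR-466i-3p and 28.6% of miR-467g against 69.6% of miR-466k, 68.2% of miR-467h and 90% of miR-669n. miR-574-5p (chr5:64970328-64970350, +) belongs to none of the families and is printed as an outside UG repeat, with 91.3% G and U. The seed of miR-467h, UAAGUGU, is the same as that of miR-467e-5p, 1 of the main products described here.

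Of the 81 hairpins, 71 lie on chromosome 2 in a single intron of Sfmbt2 (gene at chr2:10370510-10595253 on GRCm38, + strand). The intron runs from 10461473 to 10523944, a length of 62.5 kb, between exons 10 and 11 of transcript Sfmbt2-201, and the hairpins fill 51.6 kb of it from Mir466m (start 10466663) to Mir669h (end 10518279). The other 10 hairpins lie on chromosomes 3, 5, 7, 9, 10, 11 and 13. Sequences found in the Sfmbt2 hairpins and nowhere else among the families held 7648 of 7979 family reads, or 95.9%. Sequences found at both kinds of place held 328 reads, and sequences of the outside hairpins alone held 3. For 7 of the 15 products named below the same 20 bases also occur in predicted miRNA genes that carry no family symbol, from which some of their reads may come.

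**Figure D1:**
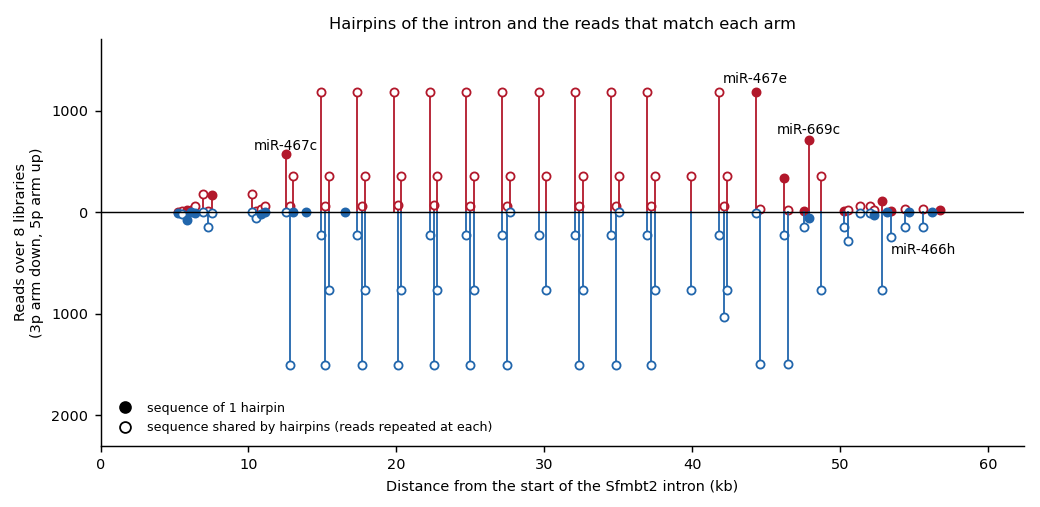
Reads over all 8 libraries that match each arm of the 71 hairpins (5p up, 3p down, any 5′ start) against the distance in kb from the start of the Sfmbt2 intron. Filled points are sequences of 1 hairpin and open points are sequences shared by several hairpins, at each of which the same reads are drawn again; the repeated middle of the cluster carries 1 set of reads that 11 to 14 copies share, while miR-467c, miR-467e and miR-669c stand alone.

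Both arms of 63 hairpins were matched by at least 1 read, and 5 hairpins had no read: Mir669g in the intron and Mir467f, Mir467g, Mir467h and Mir669n elsewhere. The reads were concentrated. The 15 sequences with at least 100 reads held 90.1% of the family reads, the first 5 held 54.4%, and 15 sequences had fewer than 10 reads. Reads did not follow the number of copies: miR-669c-5p (773 reads) and miR-467e-5p (622 reads) come from 1 hairpin each, whereas miR-669a/p-5p (368 reads) comes from 14 and miR-466/b/c/e/p-3p (991 reads) from 13. The hairpin of miR-669c lies at chr2:10509296-10509404 and that of miR-467e at chr2:10505721-10505807, both on the + strand toward the 3′ end of the cluster.

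Files held 707202 to 8512472 reads, of which 137650 (24 h) to 893010 (16 h) were counted for a miRNA. The families took 395 to 2868 of these miRNA reads. The 2 series differed in make-up, with miRNA reads at 1.85% to 12.6% of serum files and 46.1% to 57.7% of contact files. Inserts sharing 12 bases with the commonest 18 nt or 30 nt insert of serum 12 h made up 59.6% to 91.5% of serum-file reads. In contact files they made up 0.00399% to 0.0351%. Fibroblast or mesenchymal miRNAs (11 sequences of miR-21a, miR-143, miR-145a, miR-199 and miR-214) made up 6.08% to 32.6% of miRNA reads. The serum 0 h and 12 h libraries stand apart. At 12 h, 7 of the 51 family sequences had a read, in 18 distinct inserts with 36.1 reads each, and at 0 h 17 sequences had one, in 38 inserts with 23.3 reads each, against 6.07 to 14.0 reads per distinct insert in the others. At an equal depth of 137650 miRNA reads, 7 family sequences would be expected at 12 h and 16.3 at 0 h, against 19 to 31.6 in the other 6. The 0 h library also carried miRNAs of other cell types. All 3 epithelial markers (miR-141-3p, miR-200b-3p and miR-200c-3p) summed to 652 reads there, 0.274% of miRNA reads, and to 0 to 9 reads in every other library. Of the 3 blood sequences, miR-142-3p and miR-142-5p summed to 107 reads at 0 h and to 0 elsewhere, while miR-451a-5p was at 0 there. The muscle markers miR-1a-3p and miR-206-3p summed to 39 to 224 reads in all 8 libraries. No sequence of miR-122 (liver), miR-133a (muscle), miR-223 (blood) or miR-290a (pluripotent) was among the counted sequences of these lists, so none has a measured level. At 12 h the pluripotent markers (4 sequences of the miR-290 to miR-295 cluster) had 263 reads against 0 to 52 elsewhere. The part of these features in the values below was not tested.

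The families were a small share of miRNA reads. They made up 0.371% (95% exact binomial interval 0.347% to 0.397%) at serum 0 h, 0.320% at 12 h, 0.321% at 16 h, 0.215% at 20 h and 0.297% at 24 h, and 0.199%, 0.287% and 0.187% at contact days 0, 3 and 5. After TMM scaling (which sets libraries on the scale at which most miRNAs are unchanged) the total at 0 h was 1.12 times that at 12 h (1.01 to 1.25), 0.932 times that at 16 h (0.863 to 1.01), 1.54 times that at 20 h (1.37 to 1.74) and 1.14 times that at 24 h (1.02 to 1.29). Day 3 was 1.05 times day 0 (0.950 to 1.15) and day 5 was 0.952 times day 0 (0.859 to 1.06). On the TMM scale the total thus differed from day 0 by no more than counting error on either later day. This depends on the scale, since day 3 came out 1.44 times day 0 with total miRNA reads. With DESeq2 size factors day 5 came out 0.773 times day 0. These intervals, and all those below, cover counting error only.

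The arms behind that total went apart. The 5p arms took 77.9% of the arm-assigned reads at serum 0 h (689 of 884 reads; 75.1% to 80.6%), 19.3% at 12 h, 56.2% at 16 h, 58.5% at 20 h and 38.6% at 24 h. In the contact series they took 56.6% at day 0, 43.3% at day 3 (40.5% to 46.1%) and 71.6% at day 5 (68.4% to 74.5%). The low share at 12 h depends on where a product is taken to start, since it was 40.8% when 5′ ends 1 base to either side were also counted. The share at 0 h also leaves out reads with other starts, among them 70 that began 2 bases upstream of the counted start of miR-466/b/c/e/p-3p. Summed over the libraries, the arm that gave most reads differed between the families. miR-467 was read from 5p (92.3% of 2654 reads), miR-466 from 3p (7.19% from 5p, of 2601 reads), and miR-669 from both (65.2% from 5p, of 2523 reads). Within miR-669 the 5p share was 76.5%, 0%, 60.6%, 63.6% and 36.8% at serum 0, 12, 16, 20 and 24 h (the 0% being 0 of 255 reads, with an upper bound of 1.44%), and 84.0% to 96.0% in the contact libraries.

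**Figure D2:**
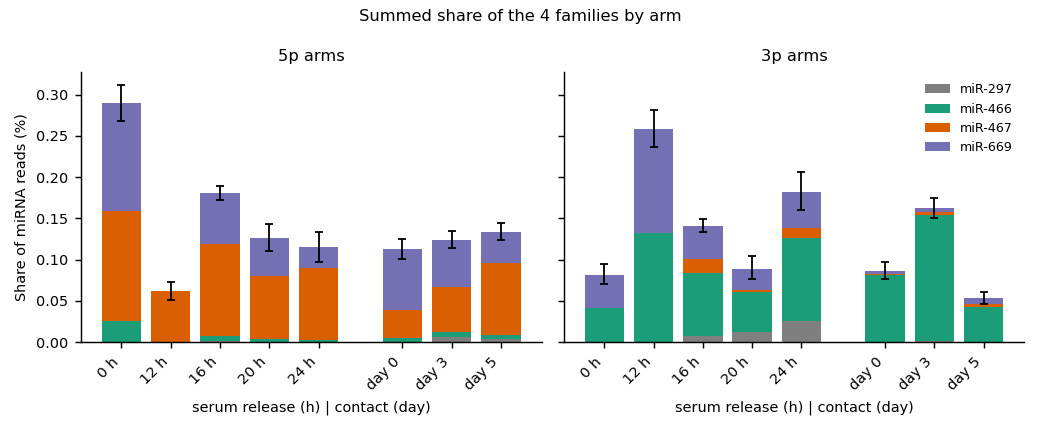
Summed share of miRNA reads (%, from 0) of the 5p arms (left) and 3p arms (right), stacked by family for each library, with the 95% exact binomial interval of the arm's sum. The 5p sum is highest at serum 0 h (0.289%) and the 3p sum at serum 12 h (0.258%) and, within the contact series, at day 3 (0.163%).

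On the TMM scale the 5p sum at 0 h was 4.55 times that at 12 h (3.76 to 5.55), 1.29 times that at 16 h (1.18 to 1.41), 2.05 times that at 20 h (1.77 to 2.39) and 2.31 times that at 24 h (1.94 to 2.76). The 3p sum at 0 h was 0.307 times that at 12 h (0.259 to 0.363), 0.469 times that at 16 h (0.401 to 0.546) and 0.411 times that at 24 h (0.339 to 0.497), while at 0.818 times that at 20 h (0.661 to 1.01) its interval included 1. This 0 h sum of 195 reads leaves out the 70 reads that began 2 bases upstream of miR-466/b/c/e/p-3p. In the contact series the 3p sum was 1.37 times day 0 at day 3 (1.19 to 1.58) and 0.625 times day 0 at day 5 (0.524 to 0.744), whereas the 5p sum was 0.799 times (0.699 to 0.915) and then 1.20 times day 0 (1.06 to 1.37). The direction of the 5p sum turns with the scaling, to 1.10 times at day 3 with total miRNA reads and 0.977 times at day 5 with DESeq2 size factors, and that of the 3p sum does not.

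miR-669c-5p, a UG-rich product of a single hairpin, was the 1 family product that met the 2-fold rule given further on in both series. It had 193 reads at serum 0 h, 0 at 12 h, 255 at 16 h, 37 at 20 h and 17 at 24 h, and 153, 75 and 43 reads at contact days 0, 3 and 5. In TMM-scaled CPM (counts per 1000000 miRNA reads after scaling) these are 561, 0, 245, 156 and 93.4 in the serum series and 827, 219 and 166 in the contact series. The starved library was the highest of the serum series and the asynchronous library the highest of the contact series. Serum 0 h was 2.29 times 16 h (1.89 to 2.77), 3.59 times 20 h (2.51 to 5.25), 6.0 times 24 h (3.65 to 10.5) and at least 53.1-fold higher than 12 h, with 3 counts taken as the limit of a count of 0. Contact day 3 was 0.264 times day 0 (0.198 to 0.351) and day 5 was 0.201 times day 0 (0.140 to 0.283). The 0 h library in which it was high is the one with 0.274% epithelial marker reads, and the part of that in the ratio was not tested.

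The other named 5p products of miR-669 followed it in part or not at all. miR-669a/p-5p, shared by 14 hairpins, had 12 reads at 0 h and 0, 138, 28 and 18 at 12, 16, 20 and 24 h, so that 0 h was 0.263 times 16 h (0.133 to 0.474), 0.295 times 20 h and 0.353 times 24 h. It had 38, 78 and 56 reads over contact days 0, 3 and 5, with ratios to day 0 of 1.11 (0.742 to 1.68) and 1.05 (0.684 to 1.63). In the serum series it was thus lowest, among the libraries with a read, where miR-669c-5p was highest, and in the contact series it did not move beyond counting error. miR-669d-5p, from 2 hairpins, had 68 of its 175 reads at 0 h and 0 at both 12 h and 24 h. Its level was 198 scaled CPM at 0 h against 53.8 at 16 h and 33.8 at 20 h, so in the serum series it was highest at 0 h like miR-669c-5p, whereas in the contact series it was at 32.4, 32.1 and 100.3 and highest at day 5. miR-669l-5p, which has the same seed as miR-669a/p-5p (GUUGUGU), had 126 reads, with 19, 32 and 20 in the contact series.

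Of the 4 named miR-467 5p products, miR-467a/b-5p and miR-467e-5p were higher on both later contact days than on day 0, the opposite direction to miR-669c-5p. miR-467a/b-5p, the most abundant family product, had 139, 75, 509, 74 and 45 reads over the serum series and 40, 118 and 187 over contact days 0, 3 and 5. Day 3 was 1.59 times day 0 (1.10 to 2.34) and day 5 was 3.34 times day 0 (2.36 to 4.82). miR-467e-5p had 21, 69 and 117 reads over the same days, 1.77 times (1.07 to 3.04) and 3.98 times day 0 (2.48 to 6.66). Each of them was higher on each later day than on the day before, and neither reached 2-fold by day 3 on the TMM scale, although with total miRNA reads as the scale both did.

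In the serum series miR-467a/b-5p varied less than the other members. It was at 404, 264, 489, 313 and 247 scaled CPM at 0, 12, 16, 20 and 24 h, and was the only 1 of 11 tested members whose highest and lowest released libraries lay under 2-fold apart (1.98 times). miR-467e-5p was at 285, 0, 242, 156 and 154. miR-467c-5p and miR-467d-5p share the seed AAGUGCG and come from 1 hairpin each. miR-467c-5p had 41, 43 and 66 reads in the contact series, with ratios to day 0 of 0.565 (0.360 to 0.889) at day 3 and 1.15 (0.766 to 1.74) at day 5, so on the TMM scale it was lower at day 3, like miR-669c-5p, and not different from day 0 beyond counting error at day 5. miR-467d-5p had 10, 8 and 30 reads there, too few at day 0 and day 3 to order them.

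**Figure D3:**
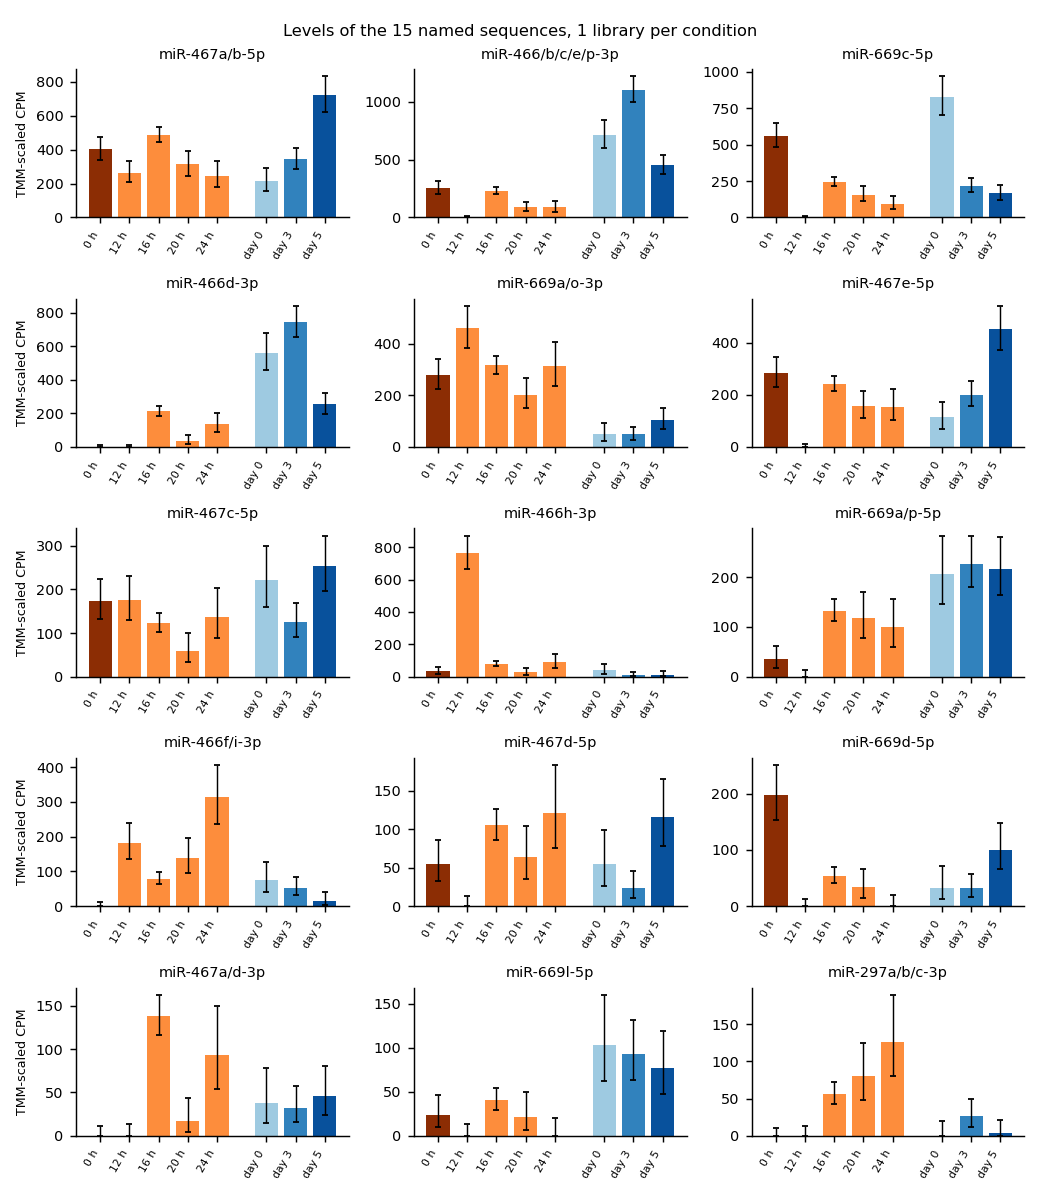
Levels of the 15 family sequences with at least 100 reads in TMM-scaled CPM (linear axes from 0, each with its own range), by library: serum 0 h (brown), released libraries (orange) and contact days 0, 3 and 5 (light to dark blue). Bars are single libraries with 95% exact counting intervals; miR-669c-5p is highest at serum 0 h and contact day 0, miR-467a/b-5p and miR-467e-5p at contact day 5, and miR-466h-3p at serum 12 h.

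Among the 3p products, miR-466/b/c/e/p-3p and the sequence counted as miR-466d-3p were highest, within the contact series, at day 3. miR-466/b/c/e/p-3p, shared by 13 hairpins, had 132, 379 and 117 reads at contact days 0, 3 and 5, or 1.55 times day 0 (1.27 to 1.90) and then 0.633 times day 0 (0.489 to 0.817). In the serum series it had 88 reads at 0 h, 0 at 12 h, 238 at 16 h, 21 at 20 h and 16 at 24 h, so that 0 h was close to 16 h (1.12 times, 0.865 to 1.43) and above 20 h (2.88 times, 1.78 to 4.89). The sequence counted as miR-466d-3p had 104, 255 and 66 reads in the contact series (1.32 times day 0, 1.05 to 1.68, and 0.453 times, 0.328 to 0.622). In the serum series it had 0, 0, 220, 9 and 25 reads at 0, 12, 16, 20 and 24 h. At 0 h, 70 reads began 1 base upstream of its counted start. Its first 20 bases also lie in 12 hairpins of miR-466, miR-466b, miR-466c, miR-466e and miR-466p, 1 base upstream of their main start. It is therefore the -1 form of miR-466/b/c/e/p-3p as much as a product of Mir466d, and the 2 counts are not independent.

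miR-669a/o-3p, shared by 12 hairpins, had 96, 131, 329, 48 and 57 reads in the serum series and 9, 17 and 27 in the contact series. Serum 0 h was 0.605 times 12 h, 0.882 times 16 h, 1.38 times 20 h and 0.891 times 24 h, of which the interval of the first alone excluded 1 (0.460 to 0.793). Day 5 was 2.14 times day 0 (0.977 to 5.17), which the few reads at day 0 leave undecided. miR-467a/d-3p (195 reads) and miR-297a/b/c-3p (110 reads) share the seed UAUACAU. Both were at 0 in the 0 h and 12 h libraries, and at 16 h they had 144 and 58 reads. At contact days 0, 3 and 5 miR-467a/d-3p had 7, 11 and 12 reads and miR-297a/b/c-3p had 0, 9 and 1. With 3 counts as the limit of a 0, miR-467a/d-3p was at least 15.9-fold lower at 0 h than at 16 h.

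The other named miR-466 3p products, miR-466h-3p and miR-466f/i-3p, did not share the day 3 peak of miR-466/b/c/e/p-3p. The rarer miR-466n-3p had 1, 9 and 4 reads at contact days 0, 3 and 5. miR-466h-3p, whose first 20 bases are also found in Mir466d, had 217 of its 346 reads at 12 h, and 11, 83, 6 and 16 at 0, 16, 20 and 24 h, with 7, 3 and 3 in the contact series, so most of its reads came from 1 library. miR-466f/i-3p pools the miR-466i-3p printed above with copies of miR-466f in the intron. It had 0 reads at 0 h and 52, 82, 33 and 57 at 12, 16, 20 and 24 h, then 14, 18 and 4 in the contact series, or 75.7, 52.4 and 15.4 scaled CPM. Its count of 0 at 0 h stands against 4 released libraries that all had it, and in each of them the level was at least 9.04-fold higher than that limit. Some products under 100 reads, picked here after their values were seen, also had most reads in 1 library: miR-669f-3p had 67 of 76 reads and miR-669c-3p 57 of 61 at 12 h, and miR-466b/e/o-5p had 44 of 58 at 0 h.

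**Figure D4:**
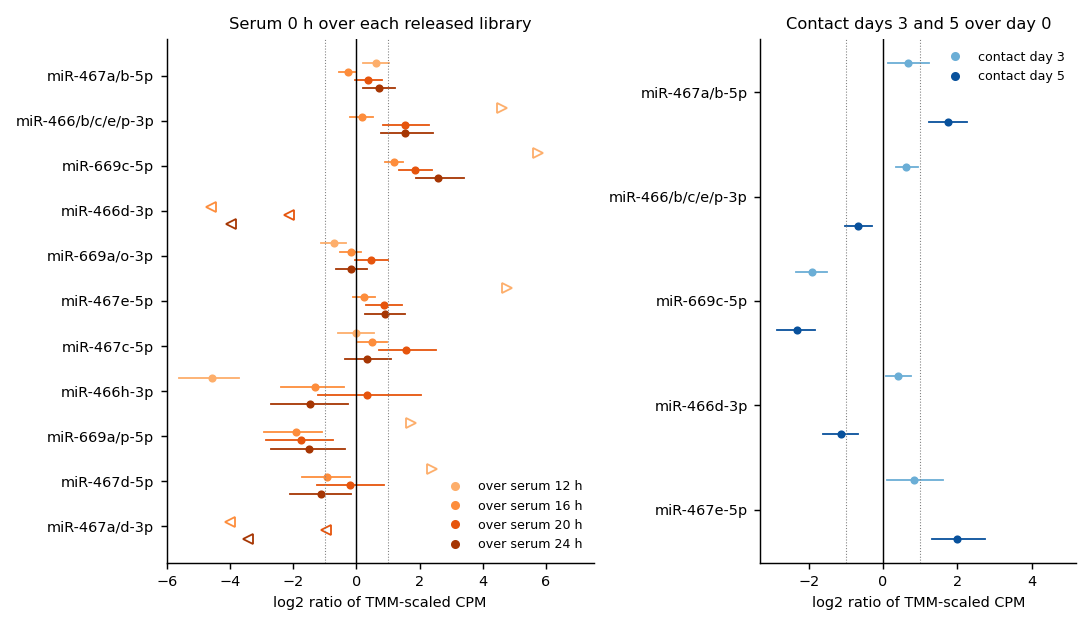
Log2 ratios of TMM-scaled CPM with 95% exact conditional intervals: left, serum 0 h over each released library for the 11 members with at least 100 reads in 1 serum library; right, contact days 3 and 5 over day 0 for the 5 members with at least 100 reads there. Open triangles are bounds for libraries with 0 reads (3 counts), no mark is drawn where both are at or under that limit, and dotted lines mark 2-fold; miR-669c-5p lies to the right of 2-fold in every serum ratio and to the left in both contact ratios.

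Read by the rule that every ratio be at least 2-fold on 1 side with each interval excluding 1, 1 of 11 members (miR-669c-5p) was higher at serum 0 h than in all 4 released libraries, where 3.96% of 227 miRNAs were, and 0 of 11 were lower, where 6.17% were. Without the 12 h library 2 members were lower (miR-669a/p-5p and miR-466d-3p), with 9.46% of all miRNAs, and without the 20 h library 1 was (miR-466h-3p), with 6.61%. The count of 0 for miR-466d-3p at 0 h stands beside 70 reads that began 1 base upstream. Among the serum libraries miR-669a/p-5p and miR-466d-3p met the minimum of 100 reads through 16 h alone, and miR-466h-3p through 12 h alone. Each is the serum library in which that product is highest, so these serum counts too describe the members and support no difference. In the contact series 1 of 5 members (again miR-669c-5p) was lower at both days 3 and 5 against a background of 11.3% of 168 miRNAs, and 0 of 5 were higher against 17.9%. miR-669c-5p met the minimum of 100 reads through day 0 alone, the library in which it is high, and miR-467e-5p through day 5 alone, so these counts describe the members and support no difference. With total miRNA reads as the scale 2 of 5 were higher (miR-467a/b-5p and miR-467e-5p), with 24.4% of all miRNAs. The same 2 were higher with day 3 left out, with 38.4% of all, and miR-466d-3p was then lower beside miR-669c-5p, with 27%. The median log2 ratio of the 5 members was 0.63 at day 3 and -0.66 at day 5, beside -0.13 and 0.22 for all 168 miRNAs. Since the 5 include miR-466/b/c/e/p-3p and miR-466d-3p, whose counts are not independent, the medians too are a description.

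The released libraries also differed among themselves. Highest over lowest was at least 2-fold for 10 of 11 members, in a background of 68.8% of 224 miRNAs. Without the 12 h library it was 5 of 10, with 46.6% of all miRNAs, and without the 16 h library, the deepest, 2 of 2, with 39.5%. The differences between 0 h and single released libraries thus stand beside differences of like size between libraries that share no arrest label.

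When the 3 libraries labelled G0 were set against the other 5 in edgeR's quasi-likelihood test, with the experiment as a term, 0 of 24 tested members had a Benjamini-Hochberg adjusted p under 0.05, where 0.829% of 362 miRNAs did, and 0 of 24 had an unadjusted p under 0.05. The smallest adjusted p of a member was 0.585, for miR-466f/i-3p, with a log2 difference of -3.81 and a standard error of 2.24. For miR-669c-5p the log2 difference was 0.45 with a standard error of 1.03 (adjusted p = 0.859), its serum and contact directions being opposite. In the interaction of G0 with the experiment, edgeR gave 3 of 24 members an unadjusted p under 0.05 (miR-466d-3p, miR-669c-5p and miR-466f/i-3p), where 4.42% of all miRNAs had one, and 0 of 362 passed adjustment. DESeq2's Wald test on the same counts called 2 of the 40 members with an adjusted p, miR-466f/i-3p and miR-466b/e/o-5p, where 6.79% of 427 miRNAs were called, and gave 4 of 49 an unadjusted p under 0.05, where 17.2% of 436 had one. The libraries set together as replicates here differ in time and experiment, so the p-values set a difference against the spread between these libraries. Serum 0 h is the only G0 library of the serum series, so G0 and that library cannot be told apart there.

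5′ starts varied between products and shifted the seed. miR-669c-5p (99.4% of 778 reads at 1 start), miR-669a/p-5p (96.8%) and miR-467a/b-5p (95.2%) had 1 dominant start. miR-467e-5p had 2, with 50.4% of 1233 reads at the counted start (seed UAAGUGU) and 48.6% 1 base downstream (AAGUGUG). Its downstream share was 41.7%, 42.5% and 43.2% at contact days 0, 3 and 5, and 16.9%, 100%, 36.2%, 37.3% and 55.4% at serum 0, 12, 16, 20 and 24 h. The count of 0 for miR-467e-5p at 12 h therefore stands beside reads of the same arm that all began 1 base downstream.

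miR-467c-5p and miR-467d-5p started 1 base upstream in 31.6% and 38.4% of reads, which gives both the seed UAAGUGC, the same as the rarer upstream form of miR-467a/b-5p (4.57%). For miR-466/b/c/e/p-3p, 53.3% of 1858 reads were at the main start (UACAUAC) and 37.0% 1 base upstream (AUACAUA). The upstream share was 42.7%, 38.5% and 34.5% over contact days 0, 3 and 5, so the day 3 peak held for both forms. At serum 0 h the upstream form had no read, while 70 reads (44.3% of 158) started 2 bases upstream, against 0 to 15 reads of that form in each other library.

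**Figure D5:**
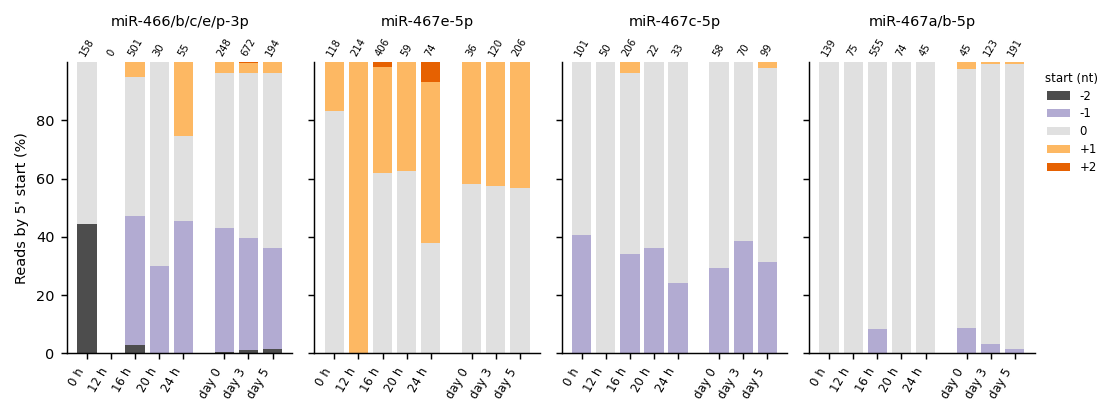
Share of reads (%) by 5′ start relative to the counted start (0; negative is upstream) for 4 products in each library, with the number of reads over all starts above each bar. miR-467e-5p divides mainly between starts 0 and +1 in 7 libraries and has +1 alone at serum 12 h, and miR-466/b/c/e/p-3p divides mainly between 0 and -1 in 5 libraries and between -1, 0 and +1 at serum 24 h, with -2 in place of -1 at 0 h and no read at 12 h.

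The seed bases also linked the miR-467 products to miRNAs outside the intron. miR-467a/b-5p, miR-467c-5p and miR-467d-5p (1827 reads together) carry AAGUGC at bases 2 to 7, as do miR-291a-3p, miR-292-3p, miR-294-3p and miR-295-3p of the miR-290 to miR-295 cluster, known as the main miRNA cluster of mouse embryonic stem cells, and miR-350-5p. Those 5 outside miRNAs had 605 reads over all libraries, 263 of them at 12 h, so in 7 of the 8 libraries most reads with this stretch came from miR-467, and at 12 h most came from outside it. UAUACA at bases 2 to 7 of miR-467a/d-3p and miR-297a/b/c-3p was shared with the 3p arms of let-7a, let-7b, let-7c and miR-98 (220 reads). The other 10 named products shared bases 2 to 7 with no counted miRNA outside the families.

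3′ ends were mostly as in the hairpin. Of family reads 84.2% had no base beyond the hairpin's own sequence (83.4% to 85.0%), 4.85% ended in added A and 3.28% in added U, beside 84.6%, 7.59% and 5.31% for all other miRNAs. Other added ends made up 7.65% of family reads against 2.50% of other miRNA reads, and at contact day 3 they were 189 of 1259 family reads against 2.39% of the others. With the libraries pooled, the commonest length was 22 nt for 9 of the 15 named products, but 20 nt for miR-467a/b-5p (48.8% of its reads) and 24 nt for miR-669c-5p (43.3%) and miR-466h-3p (32.9%). For miR-466h-3p 24 nt was commonest at serum 12 h alone (47.5% of 217 reads). For miR-669c-5p it was commonest at serum 24 h and contact days 0 and 3, and 22 nt at serum 0, 16 and 20 h and day 5.

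For comparison, the reference table held 24 mature sequences outside the families with at least 80% U and G and at least 4 UG pairs in the first 20 bases, of which 12 had reads. The rule also takes let-7b-5p (81420 reads) and let-7i-5p (45913), which are no repeats, and beyond them miR-574-5p (1368 reads), miR-1188-5p (160), miR-190b-5p (49), miR-702-5p (22), let-7j (19), miR-3064-5p (6), miR-7024-5p (6), miR-6911-5p (2), miR-1187 (1) and miR-7658-5p (1). miR-574-5p, whose sequence is printed above, was at 1205, 338 and 224 scaled CPM over contact days 0, 3 and 5, which is 0.280 times (0.222 to 0.352) and 0.186 times day 0 (0.137 to 0.249), beside 0.264 and 0.201 for miR-669c-5p. In the serum series it was at 445 scaled CPM at 0 h and at 936, 452, 101 and 319 at 12, 16, 20 and 24 h, so that unlike miR-669c-5p it was not highest at 0 h. The other listed miRNAs with at least 100 reads went both ways. Contact days 3 and 5 were 0.419 and 0.281 times day 0 for let-7b-5p, 0.643 and 0.253 for miR-1188-5p, and 0.727 and 3.89 for let-7i-5p. Among 167 outside miRNAs with at least 10 reads in every library, those whose log2 scaled CPM followed the summed families most closely over the 8 libraries were miR-181d-5p (Pearson r = 0.92), miR-378a/miR-378c-3p+5p (0.91), miR-540-3p (0.88), miR-93-5p (0.88) and miR-130b-3p (0.88). The libraries share their scaling factors and fall into 2 experiments at different levels, so these values are a description.

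Of the other large clusters, the miR-379 to miR-410 cluster (59 sequences) took 5.03% to 6.91% of miRNA reads in the serum libraries and 2.47%, 2.58% and 4.36% at contact days 0, 3 and 5, which is at least 8.98 times the share of the Sfmbt2 families in the same library. The miR-290 to miR-295 cluster (6 sequences) took 0.000224% to 0.170%, below the Sfmbt2 families in every library.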

How the data were processed

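The deposited files hold counts: per the files themselves, each of the 8 lists distinct 36 nt reads with the number of times the authors sequenced each, the 3′ adapter still attached. Library preparation is given in the labels by reference only, and any filter by the authors is not given in the sources used here.

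The adapter (at least 6 bases seen, 1 mismatch per 8) was trimmed with pandas 2.3.3 and numpy 2.4.6 under Python 3.11.15, and inserts of 16 to 30 nt were kept. Arms were defined from inserts of 18 to 26 nt that matched GENCODE M21 hairpins (GRCm38) perfectly. For miRNAs outside the families an arm was kept from 10 reads upward where 50% or more began at the same base. A read was counted where its first 20 bases were identical. Some of these match several hairpins, and 5 family sequences (356 reads) also match other transcripts.

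Single libraries were compared by ratios of TMM-scaled CPM with 95% exact conditional binomial intervals (scipy 1.17.1), wherever 1 of the compared libraries had 100 reads or more. Shares have 95% Clopper-Pearson intervals, and a count of 0 is limited by 3 counts. Reads carry no molecular identifiers, so both cover counting error only. edgeR 4.0.16 (R 4.3.3; quasi-likelihood, robust, TMM) took the 362 miRNAs with at least 10 CPM in at least 3 libraries, and DESeq2 1.42.0 was an alternative. The edgeR step was checked on simulated counts. The 15 named products had at least 100 reads in all. The members and lists were chosen with earlier results of these data known.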

Additional observations from a re-analysis of the deposited data

Results flagged for a closer look

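miR-669c-5p moved in opposite directions in the 2 ways of arrest. Its level at serum 0 h was above all 4 released libraries, and its level at contact days 3 and 5 was below day 0. The mean log2 ratio was 2.84 in the serum series (1.87 without the 12 h library, in which it had 0 reads) and -2.12 in the contact series, a difference of -4.96 (-3.99 without 12 h). In edgeR's interaction term the difference was -4.27 on the log2 scale, with an unadjusted p of 0.0496 and a Benjamini-Hochberg adjusted p of 0.850, so it does not pass over all 362 miRNAs. The product was flagged for its directions (4 of 4 serum ratios, 2 of 2 contact ratios), so these add no support. All serum ratios share the 0 h library and both contact ratios share the day 0 library. With the opposite sign, miR-466d-3p (7.97, unadjusted p of 0.0477) and miR-466f/i-3p (7.86, 0.0499) had interaction terms at the same level with the same adjusted p of 0.850. For miR-466d-3p the count at serum 0 h was 0, while 70 reads began 1 base upstream of its counted start there. The other 14 named products did not show opposite directions, as miR-669c-5p did, in every library. The serum 0 h library also held 652 reads of the 3 epithelial markers against 0 to 9 elsewhere, and the part of this in the difference was not tested.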

How the results depend on the processing

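Every library is alone in its condition, so the results rest on counting depth. Of 284 values recomputed under other settings, 241 kept their direction and side. miR-669c-5p was called in both series under every scaling and counting rule tried (total miRNA reads, DESeq2 size factors, 18 bases, inserts of 18 to 26 nt, 10 adapter bases without mismatch, 5′ ends within 1 nt, whole inserts). These rules recount or rescale the same single libraries, so they are no check on a difference between conditions. At a minimum of 500 reads 0 members could be called in any comparison, since none reaches that minimum in the contact series and 1 in the serum series. Total miRNA reads as the scale shift the median log2 ratio of all miRNAs by 0.47 at day 3 and 0.31 at 0 h over 16 h. With that scale 2 members were higher in the contact series instead of 0. The summed families then gave log2 0.53 for day 3 over day 0 and 0.21 for 0 h over 16 h, their 5p arms 0.14 (reversed) and 0.68, their 3p arms 0.92 and -0.78, and miR-467a/b-5p 0.035 for 0 h over 16 h (reversed). With DESeq2 size factors the sum gave -0.37 for day 5 over day 0 and 0.026 for 0 h over 16 h, the 5p arms -0.034 (reversed) and the 3p arms -0.98 for day 5. With whole inserts the sum gave 0.15 for day 5 over day 0 and 0.021 for 0 h over 16 h, and the 3p arms -0.76 for 0 h over 16 h, which was -0.79 with 5′ ends within 1 nt. With sequences of 1 hairpin alone, the released spread was counted for 4 members; the sum gave -0.82 at day 3, -0.24 at day 5 and 0.42 for 0 h over 16 h, the 5p arms -0.88, -0.26 (reversed) and 0.57, and the 3p arms 0.21 at day 5 (reversed), since this leaves out every shared product. The cause of the other changes was not tested. DESeq2's Wald test called 2 members.

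Leaving out each library in turn gave 1 member higher and 0 to 2 lower at serum 0 h, 0 to 2 higher and 1 to 2 lower in the contact series, 2 to 10 apart among the released libraries, and 0 called by edgeR. Counting only sequences whose copies all lie in annotated hairpins of the genome was not run. No paired analysis was possible because each condition has 1 library.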
